A study of Mus musculus with 4 samples.

Results

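The transcripts of 9 cohesin subunit genes were followed in RNA sequencing libraries of whole testis from B6D2F1 males, aged 24 days. The genes were taken by name: the meiotic subunits Rec8, Rad21l, Smc1b and Stag3, and the shared or mitotic subunits Smc3, Smc1a, Rad21, Stag1 and Stag2. All 9 were found, each as a single entry, among 26068 entries that name a gene. There were 2 libraries of wild type testis and 2 of testis homozygous for an Adad2 knockout, with no other treatment named and with strain and age shared by both groups. The protein made from Adad2 binds double-stranded RNA in male germ cells, and the title of the series names piRNA biogenesis and spermiogenesis as its subject. The labels do not describe how the allele was made or whether the libraries of a group came from separate animals, so p-values measure only the spread between these libraries, which may be technical.

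Cohesin is a ring that holds sister chromatids together and shapes chromatin loops. A pair of SMC proteins (SMC3 with SMC1A or SMC1B) forms the arms, a kleisin (RAD21, REC8 or RAD21L) closes the ring, and a STAG protein sits on the kleisin. Germ cells entering meiosis switch on REC8, RAD21L, SMC1B and STAG3, which build the chromosome axis on which homologs pair, while SMC3 serves in both settings. Cleavage of REC8 along chromosome arms and later at centromeres lets homologs and then sister chromatids part at the meiotic divisions.

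The deposited values are log2 RPKM, reads scaled to gene length and library size, so levels can be set beside each other between genes. Depth, estimated from the value that entries without reads hold, was about 29400000 to 36900000 reads per library. Adad2 itself was at 4.66 and 4.47 log2 RPKM in wild type and at 3.73 and 3.30 in knockout (log2 change -1.05, limma adjusted p = 0.00604), so transcript of the targeted gene was lower but still measured. Genes were tested with limma, a linear model that pools the spread between libraries across genes. Of 13414 genes tested, 7.15% were called lower and 1.22% higher in the knockout (8.36% in either direction) at an adjusted p under 0.05, and the median log2 change was 0.14. Changes near 0.14 are therefore those of a typical gene in these libraries. In bulk RNA, fewer cells of a type and less RNA per cell cannot be told apart.

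Rec8, the meiotic kleisin that keeps sister centromeres joined through the first division, fell in the knockout. Its level was 12.7 and 11.9 RPKM in wild type replicates 1 and 2, and 5.93 and 4.24 RPKM in knockout replicates 1 and 2. Both knockout libraries lay below both wild type libraries, and knockout replicate 2 was the lowest. On the log2 RPKM scale the group values were 3.62 ± 0.06 and 2.33 ± 0.34 (SD, n = 2 per group). This is a 2.45-fold decrease, with a log2 change of -1.29 and a 95% confidence interval from -1.68 to -0.91 (SE 0.16; limma adjusted p = 0.00316). Of all tested genes 585 had a more negative change, of which 514 were called.

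In mm9 the gene (ENSMUSG00000002324) spans 56236874 to 56244232 of chromosome 14, plus strand. At a gene length of 2748 bases its 4 values came out as whole reads, 1052 and 1212 in wild type and 537 and 343 in knockout. The exact Poisson 95% intervals, which cover counting error only, were 5.44 to 6.45 RPKM for knockout replicate 1 and 3.80 to 4.71 RPKM for knockout replicate 2. The knockout libraries thus differed from each other by more than counting error, while the wild type intervals, 11.9 to 13.5 and 11.3 to 12.6 RPKM, overlapped. The call was not kept when either wild type library was left out, which leaves a lone one in that group. Without wild type replicate 1 the log2 change was -1.25 and without wild type replicate 2 it was -1.34. It was -1.54 without knockout replicate 1 and -1.05 without knockout replicate 2.

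**Figure D1:**
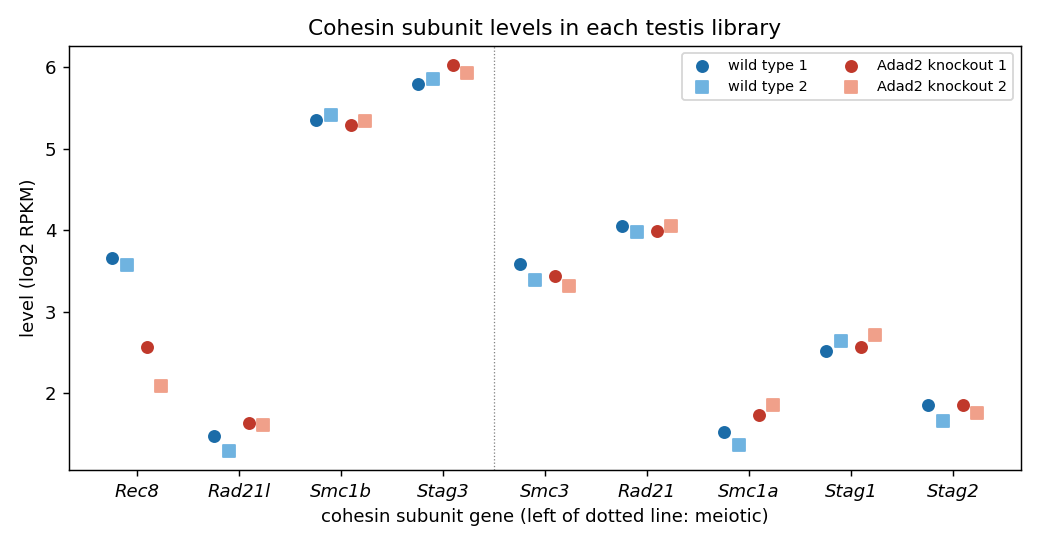
Level of each cohesin subunit (log2 RPKM, vertical axis) in the 2 wild type and 2 Adad2 knockout libraries, with 1 point per library and meiotic subunits left of the dotted line. The knockout points of Rec8, at 2.57 and 2.08, lie more than 1 log2 unit below the wild type points at 3.66 and 3.58. No other subunit shows such a gap between the groups.

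Rad21l, the other kleisin made for meiosis, did not follow Rec8 and was the least abundant subunit. Its level was 2.77 and 2.45 RPKM in wild type and 3.11 and 3.05 RPKM in knockout. The knockout libraries were the higher ones, without overlap, but the log2 change of 0.24 (95% confidence interval -0.09 to 0.57) was not past the threshold (limma adjusted p = 0.287). These values rest on 138, 149, 169 and 148 reads, against 343 to 12309 reads in the libraries of the other subunits, so counting error is largest here. Rad21l (ENSMUSG00000074704) spans 151471140 to 151494269 of chromosome 2, minus strand, in mm9.

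Smc1b, the meiotic partner of SMC3, was the second most abundant subunit. It stood at 40.7 and 42.7 RPKM in wild type and 39.1 and 40.5 RPKM in knockout, with the knockout libraries just below the wild type libraries. The log2 change was -0.07 (95% confidence interval -0.30 to 0.17; limma adjusted p = 0.659). Smc1b (ENSMUSG00000022432) spans 84895121 to 84962387 of chromosome 15, minus strand, in mm9. Stag3, the STAG protein of meiotic cohesin, was the most abundant. It stood at 55.3 and 57.9 RPKM in wild type and 65.1 and 60.9 RPKM in knockout, with the knockout libraries above the wild type libraries. The log2 change was 0.15 (95% confidence interval -0.09 to 0.40; limma adjusted p = 0.345). Stag3 (ENSMUSG00000036928) spans 138721468 to 138753621 of chromosome 5, plus strand, in mm9. The confidence intervals of Rad21l, Smc1b and Stag3 do not reach the change of Rec8.

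Promoter sequence was matched in the RefSeq table (GRCm38.p6, a later build than the mm9 of the expression table) for 7 of the 9 genes, Rec8, Rad21l, Smc1b, Stag3, Smc3, Smc1a and Stag1. The 250 bases before the start of the 4 meiotic genes are shown, 5′ to 3′ on the gene's strand, because Rec8 parted from the other meiotic subunits. Capitals mark the E2F core TCCCGC, the RFX site GTTGCC (which reads GGCAAC on the other strand) and the E-box CACGTG.
Rec8 (GRCm38.p6, chr14:55617916-55618165, plus strand): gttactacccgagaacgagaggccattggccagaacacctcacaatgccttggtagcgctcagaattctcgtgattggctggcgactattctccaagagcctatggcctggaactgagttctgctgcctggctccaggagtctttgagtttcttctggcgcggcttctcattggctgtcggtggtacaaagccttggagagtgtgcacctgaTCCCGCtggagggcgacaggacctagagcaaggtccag
Rad21l (GRCm38.p6, chr2:151668534-151668783, minus strand): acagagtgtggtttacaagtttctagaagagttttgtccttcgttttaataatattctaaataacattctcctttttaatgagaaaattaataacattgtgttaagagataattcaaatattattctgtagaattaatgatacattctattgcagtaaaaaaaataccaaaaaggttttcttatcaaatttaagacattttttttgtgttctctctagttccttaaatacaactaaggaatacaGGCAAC
Smc1b (GRCm38.p6, chr15:85131958-85132207, minus strand): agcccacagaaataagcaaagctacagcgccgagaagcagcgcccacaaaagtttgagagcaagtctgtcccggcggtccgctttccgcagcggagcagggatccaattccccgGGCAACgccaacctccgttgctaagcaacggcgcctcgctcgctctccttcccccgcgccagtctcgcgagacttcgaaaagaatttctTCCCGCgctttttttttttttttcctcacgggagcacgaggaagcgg
Stag3 (GRCm38.p6, chr5:138280259-138280508, plus strand): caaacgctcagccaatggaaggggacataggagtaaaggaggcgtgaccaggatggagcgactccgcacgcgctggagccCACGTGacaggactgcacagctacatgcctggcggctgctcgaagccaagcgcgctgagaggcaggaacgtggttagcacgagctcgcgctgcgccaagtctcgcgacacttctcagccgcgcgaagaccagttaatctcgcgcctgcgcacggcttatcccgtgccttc

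The Rec8 window held 1 E2F core, 38 to 33 bases before the start. The Smc1b window held 1 as well, 47 to 42 bases before the start, and the Smc3 and Stag1 windows 1 each, against none in those of Rad21l, Stag3 and Smc1a. Of all 32851 promoters in the table, 16.9% held this motif on either strand. Windows of both Rec8, which fell, and Smc1b, which was not called, held it, and a link with the changes was not tested. The RFX site occurred once each in the windows of Rad21l, Smc1b, Smc1a and Stag1 and in 10.4% of all promoters, and the E-box in that of Stag3 and in 6.02% of all. The GC box GGGCGG was in the windows of Smc3, Smc1a and Stag1, with 4 in Stag1, and in 32.7% of all promoters. A MYB core AACNG was in 5 of the 7 windows (not in Rad21l or Stag1) and in 74.2% of all. The short CRE site TGACG, present in 17.8% of all promoters, was in none of the 7, and nor were the full CRE palindrome (which contains it) and the longer E2F site (which contains the E2F core). GC content was 56% for Rec8, 25.6% for Rad21l, 58% for Smc1b and 62.8% for Stag3, beside a median of 52.4% over all promoters. The Rad21l window held 1 CpG, against 10 for Rec8, 25 for Smc1b and 26 for Stag3. These matches describe letters in a window and say nothing of binding.

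Of the 5 shared or mitotic subunits, 0 were called by limma in either direction, and 1, Smc1a, had an unadjusted p under 0.05. Over all tested genes 27.0% had an unadjusted p under 0.05. Smc3, the arm present in every cohesin ring, was at 3.59 and 3.38 log2 RPKM in wild type and at 3.44 and 3.31 in knockout (log2 change -0.11, 95% confidence interval -0.37 to 0.16; limma adjusted p = 0.528). The change of Smc3 was -0.0076 without wild type replicate 1 and -0.21 without wild type replicate 2. Rad21, the mitotic kleisin, was at 16.7 and 15.8 RPKM in wild type and at 15.8 and 16.6 RPKM in knockout (log2 change -0.0017, 95% confidence interval -0.23 to 0.23; limma adjusted p = 0.992). For both genes the libraries of the groups overlapped. Smc3 (ENSMUSG00000024974) is on chromosome 19 from 53674886 to 53720323, plus strand, and Rad21 (ENSMUSG00000022314) on chromosome 15 from 51794151 to 51823306, minus strand, in mm9.

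Smc1a, the mitotic counterpart of Smc1b, was at 2.88 and 2.57 RPKM in wild type and at 3.32 and 3.61 RPKM in knockout. Both knockout libraries lay above both wild type libraries. Its log2 change of 0.35 (95% confidence interval 0.02 to 0.67) was the highest of the 9, with an interval above 0, and was not past the threshold (limma adjusted p = 0.167). By counting error alone (exact Poisson 95% intervals), wild type replicate 1, at 2.64 to 3.15 RPKM, overlapped with knockout replicate 1, at 3.06 to 3.59 RPKM. Wild type replicate 2, at 2.36 to 2.80 RPKM, overlapped with neither knockout library. Nor did knockout replicate 2, at 3.33 to 3.91 RPKM, overlap with either wild type library. Stag1 and Stag2, the STAG proteins of mitotic cohesin, overlapped between the groups. Stag1 was at 5.73 and 6.23 RPKM in wild type and at 5.92 and 6.57 RPKM in knockout, and Stag2 at 3.63 and 3.17 against 3.61 and 3.39 RPKM. Their log2 changes were 0.06 (95% confidence interval -0.21 to 0.33; limma adjusted p = 0.73) and 0.04 (-0.27 to 0.36; limma adjusted p = 0.835).

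Smc1a (ENSMUSG00000041133, mm9 148450971 to 148497237, plus strand) and Stag2 (ENSMUSG00000025862, mm9 39502494 to 39630362, plus strand) are both on chromosome X, which is silenced in spermatocytes during mid-meiosis. With Rad21l they were the 3 least abundant subunits in both groups. Over the 526 tested genes of chromosome X the median log2 change was 0.20, with 60 called lower (11.4%) and 4 higher (0.76%), beside 7.15% and 1.22% of all tested genes. The change of Smc1a was above and that of Stag2 below that median. Stag1 (ENSMUSG00000037286) is on chromosome 9 from 100498217 to 100858964, plus strand, in mm9.

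Across the 9 subunits, limma called 1 lower and 0 higher, beside 7.15% and 1.22% of all tested genes. At an unadjusted p under 0.05 the counts were 1 lower and 1 higher, beside 11.3% and 15.6% of all tested genes. The groups did not overlap for 5 subunits, lower in knockout for Rec8 and Smc1b and higher for Rad21l, Stag3 and Smc1a. Over all genes 16.8% did not overlap in the lower and 46.4% in the higher direction, so a lack of overlap was common. The changes of the 8 subunits other than Rec8 ran from -0.11 to 0.35 with a median of 0.05, beside 0.14 over all genes tested. The summed level of the 9 genes was 152 and 153 RPKM in wild type and 153 and 149 RPKM in knockout.

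The order of levels was shared by the groups except for Rec8. In wild type it ran Stag3, Smc1b, Rad21, Rec8, Smc3, Stag1, Stag2, Smc1a and Rad21l. Rec8 and Smc3 overlapped in their library values, as did Smc1a and Rad21l, while each of the other neighbours in this order was separated in both libraries. In knockout Rec8 moved from the fourth to the sixth place, behind Smc3 and Stag1. Its library values there overlapped narrowly with those of Stag1 (2.57 and 2.08 against 2.57 and 2.72 log2 RPKM), and Stag2 and Smc1a also overlapped.

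Within the subunit classes, the make-up of the kleisins differed most between the groups. Of the summed kleisin RPKM, Rec8 held 39.5% and 39.6% in wild type against 23.8% and 17.8% in knockout. Rad21 held 51.9% and 52.3% in wild type and 63.7% and 69.5% in knockout. Rad21l held 8.62% and 8.10% in wild type and 12.5% and 12.8% in knockout. The summed kleisin level was 32.1 and 30.2 RPKM in wild type and 24.9 and 23.9 RPKM in knockout. Among SMC1 transcripts Smc1b held 93.4% and 94.3% in wild type and 92.2% and 91.8% in knockout. Among STAG transcripts Stag3 held 85.5% and 86.0% in wild type and 87.2% and 86.0% in knockout, which overlapped.

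A ratio within a library does not depend on how the library was scaled. The log2 difference of Rec8 minus Rad21 was -0.40 and -0.40 in wild type and -1.42 and -1.97 in knockout, a shift of -1.29. Rec8 minus the mean of Rad21l, Smc1b and Stag3 was -0.54 and -0.61 in wild type and -1.75 and -2.21 in knockout, a shift of -1.40. Smc1b minus Smc1a was 3.82 and 4.05 in wild type and 3.56 and 3.49 in knockout, a shift of -0.41. Rad21l minus Rad21 was -2.59 and -2.69 in wild type and -2.35 and -2.45 in knockout, a shift of 0.24. For these 4 differences the groups did not overlap, and the two-sided exact permutation p was 0.333, the smallest that 2 libraries against 2 allow. Stag3 minus the mean of Stag1 and Stag2 overlapped, with a shift of 0.10 (exact permutation p = 0.667). That shift was 0.039 without knockout replicate 1 and 0.16 without knockout replicate 2. With 5 such differences compared and a smallest p of 0.333, none can pass a threshold before or after adjustment.

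**Figure D2:**
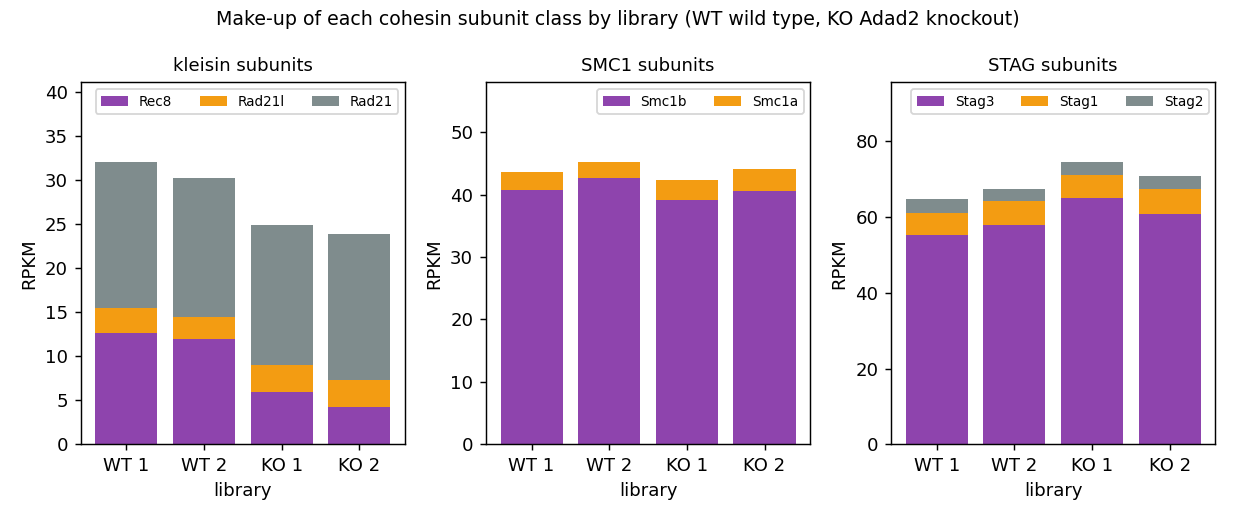
RPKM of the kleisin, SMC1 and STAG subunits stacked by library (WT wild type, KO Adad2 knockout, replicates 1 and 2; bars start at 0). The Rec8 part of the kleisin bar goes from 12.7 and 11.9 RPKM to 5.93 and 4.24 RPKM, while Rad21 stays between 15.8 and 16.7 RPKM.

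Genes that load, release, establish, protect and cleave cohesin were not called. Of 21 such regulators 20 were tested, the exception being the deacetylase Hdac8, whose mean was under 1 RPKM. Limma called 0 of them, and 0 lower and 4 higher had an unadjusted p under 0.05. Over all genes 11.3% were lower and 15.6% higher at that level. The median log2 change was 0.136, beside 0.144 over all genes, with 15 above 0, and the changes ran from -0.32 to 0.33. Over all genes 71.8% had a change above 0.

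The loader subunits Nipbl and Mau2, which open the ring onto DNA, both had a log2 change of 0.12 (limma adjusted p = 0.463 and 0.507). The release factors Wapal, Pds5a and Pds5b had changes of 0.11, 0.18 and 0.15. All 3 knockout groups lay above wild type, as did those of 46.4% of all genes. Esco1, Esco2 and Cdca5 (sororin), which make cohesion lasting by acetylating SMC3 or by holding off release, had changes of 0.17, 0.17 and 0.05. Among the protectors, Sgol2, the shugoshin that guards centromeric REC8 in meiosis, was at 3.29 and 3.51 log2 RPKM in wild type and 3.73 and 3.73 in knockout (log2 change 0.33, limma adjusted p = 0.118). Sgol1, its mitotic relative, had a change of 0.26 at levels close to 1 RPKM. Gsg2 (haspin), a histone kinase of dividing chromosomes, had the lowest change of the protector list at -0.23, from 7.06 and 7.28 to 6.96 and 6.91 log2 RPKM (limma adjusted p = 0.241). Quantile normalization took its adjusted p to 0.0311.

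Espl1, the separase that cuts kleisins, was at 4.07 ± 0.09 log2 RPKM in wild type and 4.37 ± 0.09 in knockout (SD, n = 2 each; log2 change 0.30, limma adjusted p = 0.133). Its inhibitor Pttg1 (securin) had a change of 0.30 and Cdc20, the activator that leads to securin's destruction, one of 0.26 (limma adjusted p = 0.171 and 0.181). The knockout libraries of all 3 were the higher ones, as they were for 46.4% of all genes. The boundary factor Ctcf, at which cohesin halts, had a change of 0.24 and its germ cell relative Ctcfl one of -0.32 (limma adjusted p = 0.206 and 0.324).

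**Figure D3:**
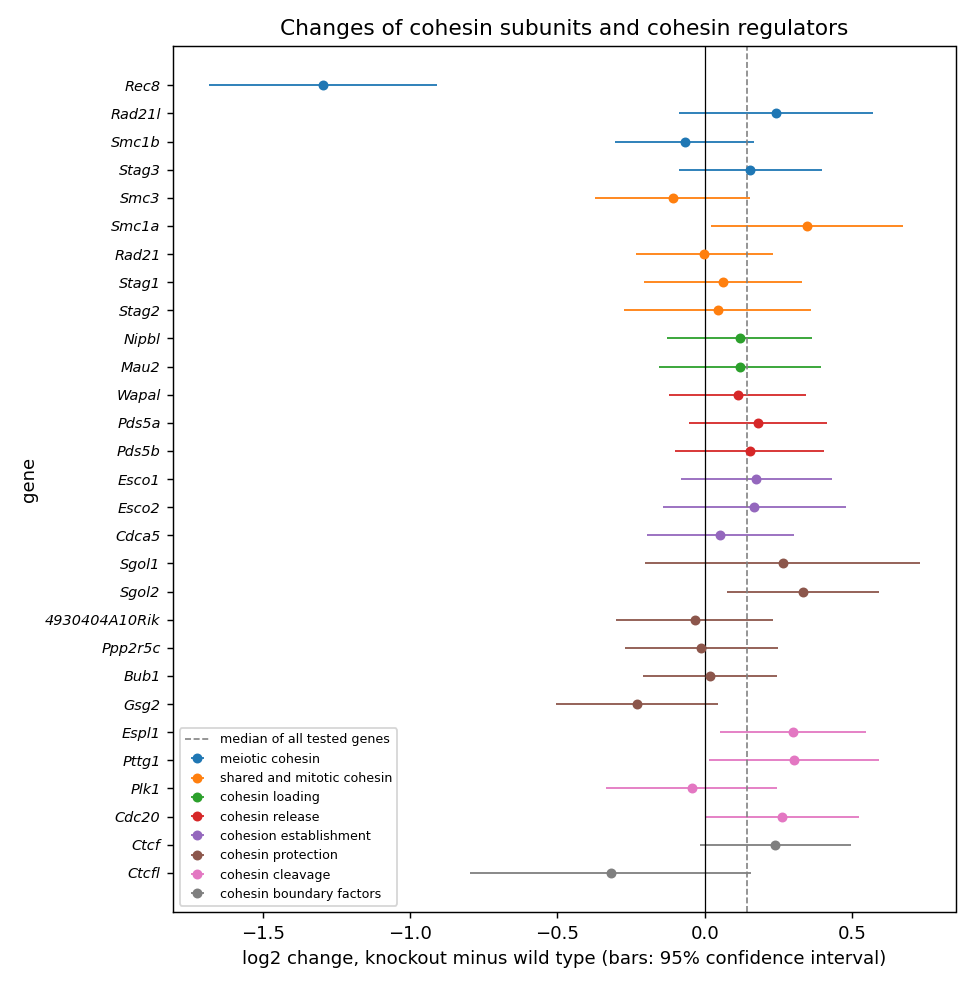
Log2 change (knockout minus wild type, horizontal axis) of the 9 subunits and 20 tested regulators, 1 gene per line, with 95% confidence intervals from limma and colours for the role. Rec8 at -1.29 has an interval that ends at -0.91, and the points of all other genes lie between -0.32 and 0.35, around the dashed median of all genes at 0.14.

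Related complexes gave a comparison for Rec8. Of 8 condensin genes, which compact chromosomes in division, limma called 0. At an unadjusted p under 0.05, 0 were lower and 5 higher, beside 11.3% and 15.6% of all genes. The condensin median log2 change was 0.29 and all 8 were above 0, beside 71.8% of all genes. The largest were Ncaph2 (0.38, limma adjusted p = 0.0726), Ncapd2 (0.34, 0.0795) and Ncapd3 (0.32, 0.107). Of 6 genes of the Smc5-Smc6 repair complex limma called 0, with 0 lower and 1 higher at an unadjusted p under 0.05, and the median was 0.16. The member with that p was Ndnl2, a subunit next to the kleisin of that complex (0.39, limma adjusted p = 0.139), followed by Nsmce4a, its kleisin (0.20, 0.227), and Nsmce2 (0.25, 0.379).

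Of 10 genes of the synaptonemal complex and meiotic axis, which assemble on REC8 and RAD21L cohesin, limma called 0. At an unadjusted p under 0.05, 0 were lower and 4 higher, beside 11.3% and 15.6% of all genes. The median of the 10 was 0.20. The smallest p belonged to Hormad1, a pairing checkpoint protein of the axis (0.31, limma adjusted p = 0.13), Sycp2, an axis core protein (0.29, 0.143), and 4930447C04Rik (0.32, 0.154). Sycp2 and Ncapd2 passed the threshold after quantile normalization (adjusted p = 0.0455 and 0.0338), and Ncaph2 without knockout replicate 1 (0.0408). No tested gene of these complexes had a change below -0.15.

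Markers of cell stages moved with Rec8 in part. The 10 elongating spermatid markers summed to 970 to 1026 RPKM in wild type and 77.3 to 130 RPKM in knockout, with 9 of 10 called lower. The round spermatid markers summed to 308 to 348 RPKM in wild type and 116 to 142 RPKM in knockout, with 7 of 9 tested called lower. In both lists knockout replicate 2, which had the lowest Rec8, had the lowest sum. Markers of leptotene and zygotene summed to 81.8 to 86.8 RPKM in wild type and 94.3 to 99.7 RPKM in knockout. Limma called 0 of 7 tested, with 0 lower and 2 higher at an unadjusted p under 0.05. Of all genes 11.3% were lower and 15.6% higher at that level, and 7.15% were called lower. Pachytene markers summed to 1283 to 1467 and 1378 to 1416 RPKM, with 1 of 10 called lower (H1fnt, a linker histone, named after its values were seen) and 0 higher. The log2 change of H1fnt, -3.62, was near the elongating spermatid median of -3.71, whereas the pachytene median was 0.08. Whether H1fnt marks pachytene cells in these libraries was not tested. No defining marker of these 4 lists was at the floor of the table in any library. The part of cell make-up in the change of Rec8 was not tested.

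Sertoli cell and spermatogonial sums were higher in the knockout libraries, and the macrophage sum was lower (through Aif1). The red blood cell sum was highest in wild type replicate 1, and wild type replicate 2 was close to knockout replicate 2. Sertoli cell markers summed to 322 to 346 RPKM in wild type and 416 to 419 RPKM in knockout, and the spermatogonial markers to 74.1 to 77.6 and 92.8 to 93.6 RPKM, with 0 called by limma in each list (7 of 9 and 3 of 8 tested higher and 0 lower at an unadjusted p under 0.05, beside 15.6% higher and 11.3% lower over all genes). Leydig cell sums overlapped between the groups (292 to 435 and 346 to 493 RPKM), with 0 of 8 called by limma and 0 lower and 1 higher at an unadjusted p under 0.05. In the peritubular list 1 of 6 was called lower (Actg2, a smooth muscle actin) and in the macrophage list 1 of 7 (Aif1). Over all tested genes 7.15% were called lower. Both genes were named after their values were seen. The macrophage markers summed to 55.8 to 58.0 RPKM in wild type and 36.3 to 36.6 RPKM in knockout, whereas the median log2 change over the 7 tested was 0.10, so that the sum and the median differ in sign. Of the 7, 6 had a change above 0. Only Aif1 fell, from 4.92 and 4.67 log2 RPKM in wild type to 2.65 and 1.95 in knockout. Limma called 0 of 4 red blood cell and 0 of 1 endothelial markers that were tested, with 0 at an unadjusted p under 0.05. Red blood cell markers summed to 84.0 RPKM in wild type replicate 1 and to 40.8, 31.7 and 40.1 RPKM in wild type replicate 2 and knockout replicates 1 and 2.

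**Figure D4:**
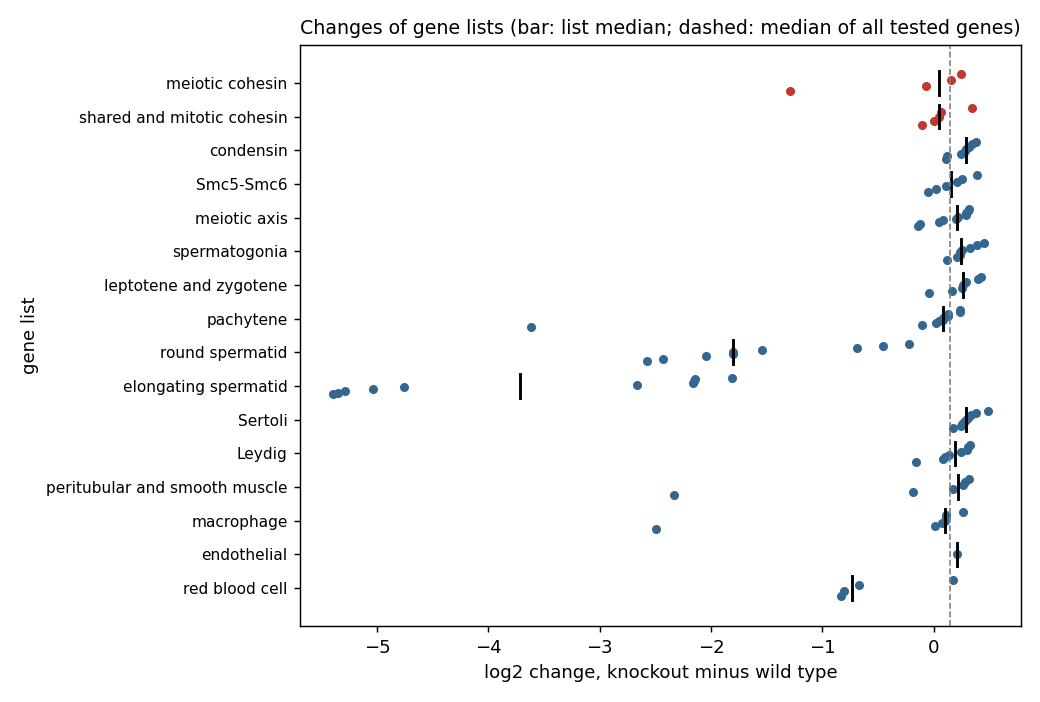
Log2 change of each tested gene (points) in the cohesin lists (red) and in lists of related complexes and cell markers (blue), with the list median as a bar and the median of all genes, 0.14, dashed. Rec8 at -1.29 stands apart from the other cohesin genes and lies within the range of the round spermatid markers, whose median is -1.80.

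The 5 tested genes whose pattern over the 4 libraries was nearest to Rec8, by Euclidean distance of log2 values centred on each gene's mean and with clone-type Rik, Gm and LOC names left out, were D11Wsu47e, Otub2, Kcnu1, BC048609 and Osbpl10. Their distances were 0.0474, 0.0624, 0.0782, 0.0935 and 0.0954 log2 units. Otub2, a deubiquitinase, was at 3.36 and 3.21 log2 RPKM in wild type and at 2.18 and 1.74 in knockout. Osbpl10, a member of the oxysterol-binding protein family, was at 3.93 and 3.76 in wild type and at 2.75 and 2.37 in knockout. Each of the 5 had its higher wild type value in replicate 1 and its lower knockout value in replicate 2, as Rec8 had. Their chromosomes were 11, 12, 8, 19 and 9, none of them that of Rec8. The 5 genes were picked by their likeness to Rec8 in these libraries, so the shared order of libraries follows from the pick. With 4 libraries such a likeness is a description of these libraries.

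**Figure D5:**
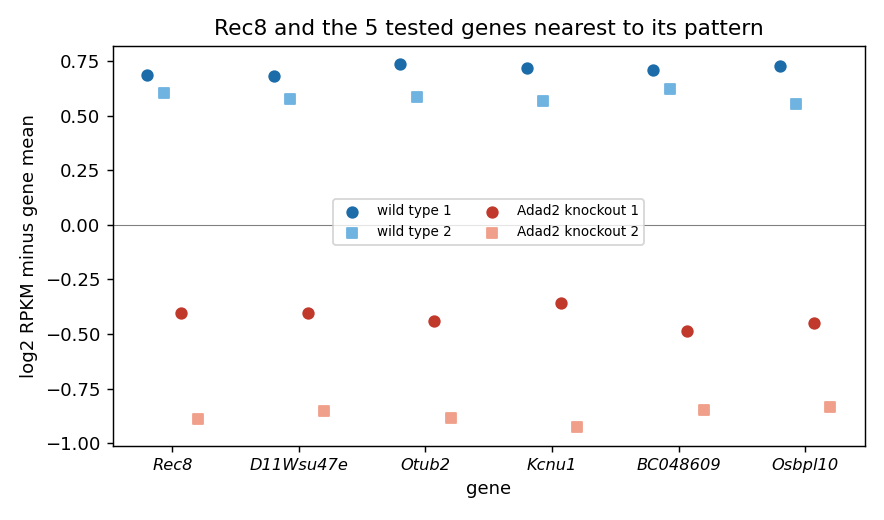
Log2 RPKM minus the gene's own mean (vertical axis) for Rec8 and the 5 tested genes nearest to it, 1 point per library. In all 6 genes both wild type points lie above 0 and both knockout points below, with knockout replicate 2 the lowest. The 5 genes were picked for this likeness, which is therefore no separate result.

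Neighbouring genes were examined because the use of strand in counting is not given in the sources used here. The 3′ end of Rec8 lies 5 bases from that of Ipo4, an importin gene on the minus strand from 56244237 to 56256732 in mm9. Ipo4 was at 5.28 and 5.43 log2 RPKM in wild type and at 5.22 and 5.35 in knockout (log2 change -0.07, limma adjusted p = 0.675), so the gene did not move with Rec8 although its level was higher. Irf9, which ends 8007 bases before Rec8 on the same strand, had a log2 change of 0.22 (limma adjusted p = 0.476). Within the table no entry overlapped Rec8. The only overlap with any of the 9 subunits was that of Gm10923, 462 bases long, with Smc1b on the opposite strand. It was under the expression filter, at -1.80 and -1.51 log2 RPKM in wild type and -4.08 and -2.18 in knockout.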

How the data were processed

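Total RNA of whole testes was made into TruSeq RNA libraries, per the labels' protocols. Per the submitters' processing notes, bcl2fastq 2.17.1.14 and Bowtie2 were used with the mm9 genome. How reads were counted, with which annotation and with or without strand, is not given in the sources used here. The authors deposited log2 RPKM values per gene, with means and a difference per group, which were not used. Group names and numbers in the headers matched the sample titles, with 0 columns left over. Of 26127 entries, 59 (0.226%) name no gene and were left out.

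Genes with a mean of at least 0 on the log2 scale (1 RPKM) entered limma 3.58.1 under R 4.3.3 (statmod 1.5.0; trend and robust estimation, unpaired, two-sided, no pseudocount), with Benjamini-Hochberg adjustment over 13414 genes at 0.05. The code was tested on simulated data. Depth followed from entries without reads, which hold 0.9 of a read, in 534 single-exon genes whose length matches Gencode M21. Of their values up to 10 reads, 100% were whole within 2%. For each subunit, the shortest length from 500 to 15000 bases that made all 4 values whole reads within 0.02 was taken.

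The subunits, the lists of regulators, complexes and markers, and the naming rule (tested members past the threshold and up to 3 with the smallest p per list) were chosen with earlier results of these data known. Alternatives were other filters, log2(RPKM + 1), quantile normalization, equal medians, plain limma, a replicate block, summed entries, and leaving out each library.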

Additional observations from a re-analysis of the deposited data

How the results depend on the processing

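The count of 1 cohesin subunit called lower was 0 without wild type replicate 1 or without wild type replicate 2, so that leaving out each library gave 0 to 1, and it was 1 under all other alternatives run. Leaving out a wild type library leaves a lone one, taken to vary as the knockout group does. Without wild type replicate 1 limma called 0 genes of any kind in either direction (2357 at an unadjusted p under 0.05). The log2 change of Rec8 stayed between -1.54 and -1.05 over all alternatives, with adjusted p from 4.01e-25 (replicate block) to 0.108. The replicate block leaves little of a gene's own spread to measure, so its adjusted p rests mainly on the spread pooled across genes. No subunit was called higher under any of the alternatives. With the filter at a mean of 2 log2 RPKM, Rad21l, Smc1a and Stag2 were not tested, so the counts there cover the other subunits. The labels do not tie equal replicate numbers to a shared litter or day. Deviations of same-numbered libraries correlated at 0.331 across genes. With the number as a replicate block, regulators called higher went from 0 to 3 (Sgol2, Espl1 and Pttg1). Among the related complexes the fit with the block called Ncaph2 (adjusted p = 0.00505), Ncapd2 (0.0206), Ncapd3 (0.0219), Ndnl2 (0.0239), Hormad1 (0.0257) and 4930447C04Rik (0.0298), all higher, and took calls over all genes from 959 lower and 163 higher to 1477 and 1837. For differences between subunits the replicate block gives the same shifts, -1.29 for Rec8 minus Rad21, with no test. After quantile normalization regulators called lower went from 0 to 1 (Gsg2). Leaving out each library gave 0.15 to 0.33 for Rad21l, 0.26 to 0.43 for Smc1a, 0.11 to 0.20 for Stag3, -0.10 to -0.033 for Smc1b and -0.21 to -0.0076 for Smc3. Changes near 0 reversed sign. Rad21 was at 0.0040 after quantile normalization, 0.036 without wild type replicate 1 and 0.032 without knockout replicate 1 (leaving out each library: -0.040 to 0.036). Leaving out libraries gave -0.054 to 0.14 for Stag2, -0.013 to 0.14 for Stag1 and -0.025 to 0.13 for Cdca5. Stag2 was at -0.054 without wild type replicate 2 and -0.0023 without knockout replicate 1. The cause was not tested. Of 461 values of 39 named genes under alternatives, 428 kept direction and side of the threshold.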
